A study of Mus musculus with 9 samples.

Results

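Collagen chain genes were taken as the protein-coding mouse genes whose symbol is Col, a number, the letter a and a number, which gave 44 of the 52609 genes with a transcript in the deposited tables. By the class of protein they encode, 11 were fibrillar, 6 type IV, 6 type VI, 9 FACIT (fibril-associated collagens with interrupted helices), 2 multiplexin, 4 transmembrane, 3 short-chain network and 3 other collagens. Of the 44 genes 42 passed the filter on low counts and were tested, and Col4a3 and Col19a1, which held at most 7 reads in any library, did not. Values are given for the 35 genes with a mean of at least 1 TPM (a length-scaled relative level) in some group or with a call in some comparison. The other 9 were Col4a3, Col4a4, Col6a4, Col6a6, Col10a1, Col17a1, Col19a1, Col25a1 and Col28a1, none of which exceeded 5.89 CPM (read counts as a share of the library total, on a common TMM scale) in any library or was called.

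Collagens are secreted proteins whose chains wind around each other into a helix, and each type is defined by the chains that join. Fibrillar chains are the main product of fibroblasts and build the rope-like fibres of connective tissue. Type IV chains form the sheet-like network of basement membranes, which in the early embryo lie beneath the epiblast and line the trophoblast and the extraembryonic endoderm. FACIT collagens sit on the surface of fibrils, and type VI collagen forms beaded filaments between cells and fibres.

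RNA was sequenced from 4 groups of mouse cells described as epiblast stem cells. These are derived from dissected epiblast and grown on inactivated mouse embryonic fibroblasts as feeder cells, so each library can hold RNA of both. The medium of all groups held Knockout serum replacement with FGF2 (10 ng/mL) and Activin A (20 ng/mL). The control group (control, n = 2) was a control line without inhibitor. The Dkk1_KO group (n = 3) was a line with a knockout of Dkk1, a secreted Wnt antagonist, also without inhibitor. The IWP2 group (n = 2) held Wnt-inhibited cells kept in IWP2 at 5 µM, which blocks Wnt secretion. The IWP2_removed group (n = 2) held cells derived with IWP2 and then grown without it. Control and Dkk1_KO are each labelled as 1 line. The labels of IWP2 and IWP2_removed do not say how many lines they hold or whether they share one. Line and condition therefore cannot be told apart. The labels do not say that the replicates were separate cultures, and p-values then measure only the spread between these libraries, which may be technical. The treatment text also names SB431542, which no group here is labelled as receiving.

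Libraries held 10849490 to 17892751 estimated reads. Dkk1 was at 6.77 and 8.95 CPM in the control libraries and at 0.701, 0.835 and 1.13 CPM in Dkk1_KO. Defining markers of the labelled cell type were nearly absent from Dkk1_KO: 6 of 8 epiblast markers were called lower (Pou5f1 at 0.304% and Nanog at 1.18% of control), 2 were called higher (Dnmt3b and Utf1), and 7 of 8 trophoblast markers were called higher. Over all genes tested, 23.0% were called lower and 21.3% higher. The summed CPM of the epiblast markers was 1594 to 1823 in control and 619 to 649.9 in Dkk1_KO, where Dnmt3b and Utf1 held nearly all of it. That of the trophoblast markers was 26.8 to 84.0 and 1724 to 1731. Whether the collagen differences go with this difference in cell type was not tested. In bulk RNA, fewer cells of a type and less RNA per cell cannot be told apart.

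The collagen pool was led by fibrillar chains. To compare genes, CPM were divided by the length of the longest coding transcript in kilobases (CPM per kb). That transcript need not hold most reads, so the order is approximate. In the control libraries it held 0.371% and 0.283% of Col18a1 reads and 46.5% and 78.1% of Col4a1 reads. In control the order of levels was Col1a2 (201 ± 34.6, SD, n = 2), Col1a1 (184 ± 48.5), Col3a1 (125 ± 42.5), Col18a1 (87.5 ± 0.377), Col6a1 (48.7 ± 16.4) and Col4a1 (47.5 ± 5.19) CPM per kb. Col1a2 and Col1a1, Col3a1 and Col18a1, and Col6a1 and Col4a1 differed by less than the larger SD of each pair, while the steps from Col1a1 to Col3a1 and from Col18a1 to Col6a1 were wider than that. Together Col1a1, Col1a2 and Col3a1 made up 48.5% of all collagen CPM in control, 49.9% in IWP2 and 50.8% in IWP2_removed, but 33.7% in Dkk1_KO. In Dkk1_KO the order was Col1a1 (138), Col4a1 (124), Col1a2 (99.6) and Col4a2 (85.5 CPM per kb), and Col4a1 with Col4a2 held 30.2% of collagen CPM, against 8.65% in control.

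Summed TPM is less suited to this ranking. Col1a1 has 3 annotated transcripts under 500 bases, which held 11.9% to 50.8% of its summed TPM but only 0.267% to 1.78% of its reads. Col1a1 therefore summed to 220.3 and 95.6 TPM in the 2 IWP2 libraries, while its CPM there were 880.4 and 826. CPM are used below for this reason, with summed TPM beside the class totals.

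In Dkk1_KO against control, 8 of 11 fibrillar and 5 of 8 tested FACIT genes fell, and the basement membrane chains Col4a1 and Col4a2 rose. By edgeR's quasi-likelihood test (Benjamini-Hochberg adjusted p below 0.05 over all genes tested), 22 of 42 collagen genes were called, 52.4% of them, beside 44.3% of all genes tested. Lower calls made up 18 of 42 genes (42.9%, beside 23.0% of all genes tested) and higher calls 4 of 42 (9.52%, beside 21.3%). The median log2 fold change was -0.91 over the collagen genes and -0.03 over all genes tested. With the Dkk1_KO libraries averaged to 1 library, 11 genes were called, 8 lower and 3 higher.

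**Figure D1:**
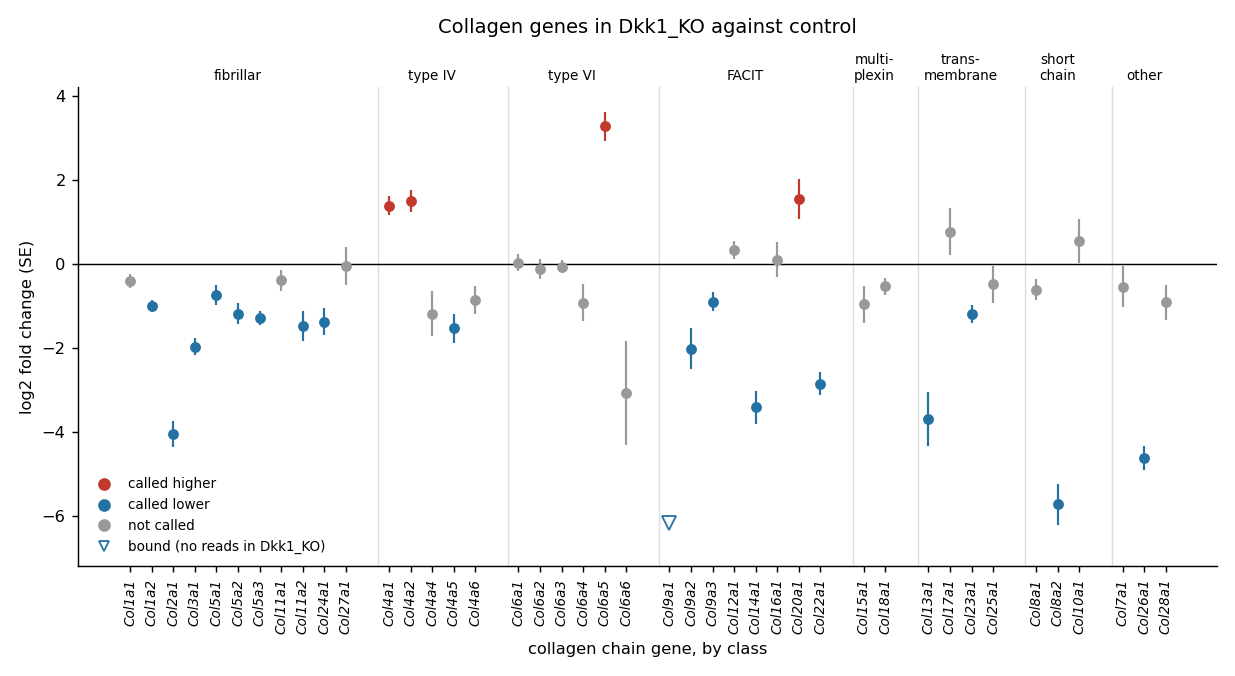
Each point is the log2 fold change (vertical axis) of 1 of the 42 tested collagen genes (horizontal axis, by class) in Dkk1_KO against control, and bars are the SE. Red points were called higher (4 genes), blue lower (18 genes, Col9a1 included as an open triangle at its bound of 71.8-fold lower), and grey points were not called; all 11 fibrillar points lie below 0 while Col4a1 and Col4a2 lie at 1.38 and 1.49.

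Of the 11 fibrillar genes 8 fell, 3 were not called and none rose in Dkk1_KO (beside 23.0% of all genes tested lower and 21.3% higher). The median log2 fold change of the class was -1.19. Col3a1, the chain of type III collagen of skin and vessel walls (chromosome 1, 45311538 to 45349706, plus strand, GRCm38), was at 527 and 862 CPM in control and at 178, 177 and 172 CPM in Dkk1_KO. The 3 knockout libraries were nearly alike and far below both control libraries. The log2 fold change was -1.98 ± 0.20 (SE, adjusted p = 9.47e-05).

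Type I collagen, the most abundant fibrillar collagen, is built from the products of Col1a1 and Col1a2. Col1a2 (chromosome 6, 4504814 to 4541544, plus strand) was at 943 and 1204 CPM in control and 536, 529.5 and 533 CPM in Dkk1_KO. Its knockout libraries were all below control, with a log2 fold change estimated at -1.01 ± 0.14 (SE, adjusted p = 0.000625). Col1a1 (chromosome 11, 94936224 to 94953042, plus strand) was at 889 and 1295 CPM in control and 802, 815 and 846 CPM in Dkk1_KO. The libraries did not overlap, but the difference of -0.41 ± 0.17 (log2, SE) did not pass the test (adjusted p = 0.0789). The control libraries decide this value, which was -0.66 without control replicate 1 (called, adjusted p = 0.0101) and -0.09 without control replicate 2 (adjusted p = 0.665). Within libraries the ratio of Col1a1 to Col1a2, in CPM per kb, was 0.91 ± 0.0849 in control (SD, n = 2) and 1.39 ± 0.04 in Dkk1_KO (SD, n = 3). The Col1a2 call was lost with the Dkk1_KO libraries averaged to 1 (adjusted p = 0.0696).

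Col2a1, the chain of type II collagen of cartilage and notochord (chromosome 15, 97975602 to 98004695, minus strand), was at 199.9 and 189 CPM in control and at 11.7 CPM in each of the 3 Dkk1_KO libraries. This was the largest fall among the fibrillar genes, a log2 fold change estimated at -4.06 ± 0.31 (SE, adjusted p = 2.2e-05) or 16.6-fold. The notochord markers Shh (53.0 ± 7.37 CPM in control, 0.0487 ± 0.0422 in Dkk1_KO), T (78.0 ± 35.0 and 2.97 ± 0.475) and Noto (2.99 ± 1.68 and 0.0725 ± 0.0708) were also called lower, while Acan, the cartilage proteoglycan, was called higher (0.413 ± 0.207 and 11.9 ± 1.09). Over this list of 6 cartilage and notochord markers 4 were called lower and 2 higher (66.7% and 33.3%, beside 23.0% and 21.3% of all genes tested). The summed level was 127 to 166 CPM in control and 30.8 to 35.9 in Dkk1_KO. Their part in the Col2a1 result was not tested.

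The type V chains, which join type I fibrils and limit their width, all fell. Col5a1 was at 318 and 377 CPM in control and 202 to 212 CPM in Dkk1_KO (log2 fold change -0.75). Col5a2 was at 292 and 263 CPM against 118 to 127 CPM (-1.19). Col5a3 was at 24.6 and 29.1 CPM against 10.2 to 12.4 CPM (-1.29). In all 3 genes the groups did not overlap. Col5a1 was the least stable of these calls (adjusted p = 0.0344, range over its alternatives 0.000573 to 0.289), lost on leaving out any 1 control or Dkk1_KO library or IWP2_removed replicate 1.

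Among the minor fibrillar genes, Col11a2 of type XI collagen (3.11 to 4.90 CPM in control, 1.12 to 1.70 in Dkk1_KO) and Col24a1 (3.03 to 4.35 and 1.33 to 1.56) fell, by 1.48 and 1.38 on the log2 scale. Col11a1 (41.8 and 56.5 CPM in control, 36.4 to 39.2 in Dkk1_KO) and Col27a1 (7.65 to 13.3 and 9.84 to 10.4) did not pass the test. Col27a1 overlapped between the groups and Col11a1 did not. Col11a2 lost its call without control replicate 1 and Col24a1 without control replicate 2, and both did with the Dkk1_KO libraries averaged to 1.

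The type IV genes split in Dkk1_KO: Col4a1 and Col4a2 rose, Col4a5 fell, and Col4a6 and Col4a4 were not called. Col4a1 (chromosome 8, 11198423 to 11312826, minus strand) and Col4a2 (chromosome 8, 11312805 to 11449287, plus strand) encode the pair of chains found in nearly all basement membranes. Their genes start head to head and overlap by 22 bases in the annotation. Col4a1 was at 289.8 and 338 CPM in control and 818, 819 and 819 CPM in Dkk1_KO. Col4a2 was at 176 and 217 CPM in control and 545, 556 and 553 CPM in Dkk1_KO. Every knockout library was above every other library of the study for both genes. The fold changes were close, with log2 values of 1.38 ± 0.23 (SE, adjusted p = 0.0017) for Col4a1 and 1.49 ± 0.27 (SE, adjusted p = 0.00222) for Col4a2.

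The ratio of Col4a1 to Col4a2, in CPM per kb, stayed within 1.32 to 1.61 over all 9 libraries. Transcripts not annotated as coding held 12.8% to 52.6% of the Col4a1 reads, depending on the library. With protein-coding transcripts only, an alternative added after the data were seen, Col4a1 had the same direction (log2 fold change 1.26) but did not pass the test (adjusted p = 0.0786), and it also did not in limma on either TPM scale. Col4a2 passed under all 19 alternatives.

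Col4a5 (chromosome X, 141475385 to 141689234, plus strand) and Col4a6 (chromosome X, 141165403 to 141474076, minus strand) encode chains that join each other in a narrower set of basement membranes, such as those of smooth muscle. Col4a5 was at 70.5 and 92.1 CPM in control and 27.6, 28.4 and 27.8 CPM in Dkk1_KO, without overlap. It fell by 1.54 on the log2 scale (SE 0.35, adjusted p = 0.00721), a call lost without control replicate 2 and with the Dkk1_KO libraries averaged to 1 (range over its alternatives 1.06e-08 to 0.132). Col4a6 was near its detection limit in both groups, with 51 reads in the 2 control libraries and 12 to 18 reads in each Dkk1_KO library. The remaining pair of the family, Col4a3 and Col4a4, whose starts lie 71 bases apart on chromosome 1, stayed at or below 1.15 CPM in all libraries.

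The bases before the 2 start sites are shown because Col4a6 was called in IWP2 and IWP2_removed and its neighbour Col4a5, which starts 1308 bases away in the opposite direction, was not. They come from the RefSeq promoter table (build GRCm38.p6) and are written 5′ to 3′ on the strand of each gene, and capitals mark GGGCGG (GC box), CCAAT or TATAAA on either strand, none of which overlapped here. The Col4a6 stretch is chrX:141474077-141474326, minus strand, and the Col4a5 stretch is chrX:141475169-141475384, plus strand, which stops where the gene annotation starts.
Col4a6: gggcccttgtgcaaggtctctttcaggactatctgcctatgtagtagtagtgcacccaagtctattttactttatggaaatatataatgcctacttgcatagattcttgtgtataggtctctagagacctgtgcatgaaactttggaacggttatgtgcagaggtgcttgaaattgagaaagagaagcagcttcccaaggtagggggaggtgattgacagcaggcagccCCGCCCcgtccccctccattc
Col4a5: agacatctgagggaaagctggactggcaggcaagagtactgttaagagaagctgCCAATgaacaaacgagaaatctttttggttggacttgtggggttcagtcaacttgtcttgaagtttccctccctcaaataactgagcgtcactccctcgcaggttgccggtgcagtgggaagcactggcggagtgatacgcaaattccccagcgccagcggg
The Col4a6 stretch holds 1 GC box, read on the opposite strand, and its G and C share is 47.6%. The Col4a5 stretch holds 1 CCAAT, with a G and C share of 52.3%, and its full window of 300 bases, which runs past the annotated start, also holds 1 GC box, as that of Col4a6 does. Over windows of 300 bases (250 before and 50 after the start), 35 of the 44 collagen genes had an entry, some with more than 1 start, for 38 windows. GGGCGG was found in 23 of them (60.5%, beside 35.7% of all 32851 windows), CCAAT in 13 (34.2%, beside 37.4%) and TATAAA in 5 (13.2%, beside 13.6%). Col1a1, Col2a1, Col5a2 and Col12a1 were among the genes without an entry. The windows of Col4a1 and Col4a2 overlap, and Col6a2 counts with a GC box in each of its windows, so the windows are not independent. A match is a description of letters and not of a bound site.

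**Figure D2:**
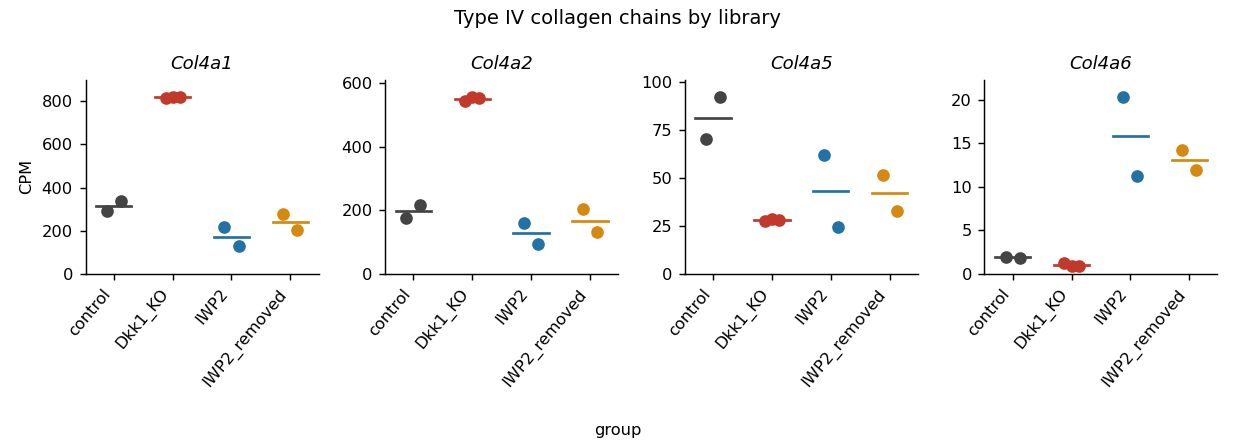
Points are the CPM (vertical axes, each from 0) of Col4a1, Col4a2, Col4a5 and Col4a6 in each library by group, and lines are group means. Col4a1 and Col4a2 are highest in the 3 Dkk1_KO libraries, Col4a5 is highest in the 2 control libraries, and Col4a6 is highest in the IWP2 (20.3 and 11.3 CPM) and IWP2_removed libraries (14.2 and 11.9 CPM).

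Summed over their class, the 11 fibrillar genes held 3256 and 4291 CPM in control and 1909.9, 1927 and 1955 CPM in Dkk1_KO, or 51.2% of the control mean (41.8% in summed TPM). The 6 type IV genes held 539 and 650 CPM in control and 1392, 1405 and 1402 CPM in Dkk1_KO, or 235% (197% in summed TPM). Type IV CPM were 0.166 and 0.151 of fibrillar CPM in the control libraries and 0.717 to 0.729 in Dkk1_KO. The groups did not overlap in either sum or in this ratio. These sums carry no test.

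The fibrillar fall went with lower levels of some fibroblast markers that are not collagens. Of 12 such markers 6 were called lower and none higher in Dkk1_KO, and their summed level was 1146 and 783 CPM in control and 669 to 701 CPM in Dkk1_KO, without overlap, or 71.0% of the control mean. Fbln2, a secreted matrix protein, held the largest part of this sum (617 and 247 CPM in control, 407 to 435 in Dkk1_KO). Without it, a choice made after the values were seen, the other 11 summed to 529.7 and 536 CPM in control and 253 to 266 CPM in Dkk1_KO, or 48.8% of control. Most of that fall lay in Postn (mean 157 CPM in control, 35.3 in Dkk1_KO) and Dcn (85.5 and 5.78 CPM). The markers did not move as 1 block. Dcn and Lum, proteoglycans that bind collagen fibrils, were at 6.76% and 10.1% of control, and Postn, a matrix protein that binds collagen, was at 22.5%. Prrx1, a mesenchymal transcription factor, was at 90%, Fbln2 at 98.4% and S100a4 at 121%. Thy1, Pdgfra, Pdgfrb and Twist2 were at 64.9%, 70.5%, 69.0% and 83.4%, Fap at 22.8% and Mfap5 at 128%. The fibrillar genes ranged from 6.01% of control for Col2a1 and 25.3% for Col3a1 to 75.2% for Col1a1 and 95.9% for Col27a1. How far the fibrillar values reflect the number of feeder cells was not tested.

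**Figure D3:**
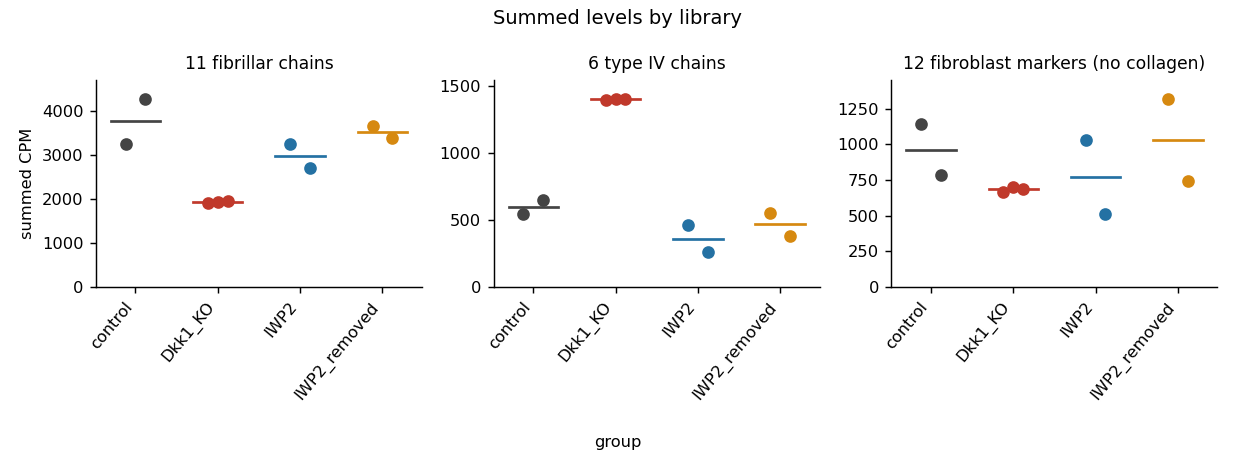
Points are summed CPM (vertical axes from 0) per library for the 11 fibrillar genes, the 6 type IV genes and 12 fibroblast markers that are not collagens, and lines are group means. In Dkk1_KO the fibrillar sum (1909.9 to 1955 CPM) is below, and the type IV sum (1392 to 1405 CPM) above, every other library, while the fibroblast markers (669 to 701 CPM) lie within the range of the IWP2 libraries (510.5 and 1033 CPM), which without Fbln2 they do not (253 to 266 against 375 and 470.5 CPM).

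Among the FACIT genes 5 of 8 fell, 1 rose and 2 were not called in Dkk1_KO (beside 23.0% of all genes tested lower and 21.3% higher). Their summed CPM, led by the uncalled Col12a1, were 96.1% of control (77.3% in summed TPM). The genes of type IX collagen, which decorates cartilage fibrils, all fell. Col9a1 had 48 and 98 reads in the control libraries and no read in the 3 Dkk1_KO libraries, at least 71.8-fold lower (floor of 3 counts over the group, counting error only). Col9a2 was at 8.55 and 19.5 CPM in control and 2.87, 3.49 and 4.03 CPM in Dkk1_KO. Col9a3 was at 7.12 and 8.83 CPM against 3.87 to 4.67 CPM. Neither overlapped, with log2 fold changes of -2.02 and -0.90. Col9a3 shares 234 bases with Tcfl5 on the opposite strand (22.6 CPM in control, 11.9 in Dkk1_KO), so its value is uncertain, and it lost its call without control replicate 2 or Dkk1_KO replicate 2. Col9a2 lost its call without control replicate 2 as well (log2 fold change -1.27, adjusted p = 0.107).

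Of the FACIT chains that bind type I fibrils, Col14a1 fell from 6.68 and 8.76 CPM in control to 0.981, 0.38 and 0.778 CPM in Dkk1_KO (log2 fold change -3.42 ± 0.39, SE, adjusted p = 0.000223). Col12a1, its close relative, was at 152 and 177 CPM in control and 196, 223 and 204 CPM in Dkk1_KO and did not pass the test (0.33 ± 0.22, adjusted p = 0.242). Col22a1, a collagen of muscle-tendon junctions, fell from 26.5 and 48.2 CPM to 4.62, 5.62 and 5.24 CPM (-2.86 ± 0.27, adjusted p = 7.45e-05). Col16a1 (34.9 to 55.3 CPM in control, 46.5 to 50.3 in Dkk1_KO) overlapped. Col20a1 rose by 1.54 on the log2 scale from a low level (0.534 and 1.24 CPM in control, 2.66 to 2.69 in Dkk1_KO, adjusted p = 0.029). That call was lost in 9 of 19 alternatives, without control replicate 1 or any 1 Dkk1_KO library among them, the value was 2.33 without control replicate 2, and Col20a1 overlaps the gene BX649560.1 on the same strand.

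Of the 6 type VI genes 1 rose (beside 21.3% of all genes tested called higher) and 5 were not called in Dkk1_KO. Col6a1 (152 and 247 CPM in control, 200.2 to 206 in Dkk1_KO), Col6a2 (108 and 184 CPM, 129 to 139) and Col6a3 (146 and 168 CPM, 147 to 153), its main chains, overlapped between control and Dkk1_KO in each case. Their log2 fold changes were 0.02, -0.13 and -0.07, each with an SE of 0.24 or less. Col6a5, a chain related to Col6a3, had 6 and 13 reads in the control libraries and 104, 78 and 96 reads in Dkk1_KO (0.534 and 0.808 CPM against 5.92 to 7.29 CPM). It rose with a log2 fold change estimated at 3.27 ± 0.35 (SE, adjusted p = 0.000156), and was called under all 19 alternatives.

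In the remaining classes the largest falls were those of Col8a2 and Col26a1. Col8a2 encodes a chain of the hexagonal type VIII network known from the cornea. It was at 71.7 and 72.2 CPM in control and 1.26, 1.67 and 1.13 CPM in Dkk1_KO (log2 fold change -5.73 ± 0.48, SE, adjusted p = 3.9e-05). Its partner Col8a1 was at 90.4 and 63.3 CPM in control and 48.3 to 53.1 CPM in Dkk1_KO, without overlap, and did not pass the test (-0.62, adjusted p = 0.0752), though it did without either IWP2_removed library. Col26a1 was at 21.0 and 28 CPM in control and 1.26, 1.06 and 0.637 CPM in Dkk1_KO (-4.63 ± 0.28, adjusted p = 8.18e-06), and in Dkk1_KO its longest coding transcript held no read.

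The transmembrane collagens Col13a1, known from the neuromuscular junction, and Col23a1 also fell. Col13a1 had 35 reads in the control libraries and 4 reads in the Dkk1_KO libraries. Col23a1 was at 9.26 and 9.08 CPM in control and 3.72 to 4.13 CPM in Dkk1_KO (log2 fold change -1.20). The multiplexins, which carry sugar chains and lie in basement membrane zones, were not called. Col18a1, the precursor of endostatin, was at 491 and 488 CPM in control and 329, 335 and 346 CPM in Dkk1_KO, without overlap (-0.54 ± 0.21, adjusted p = 0.069). It overlaps Slc19a1 on the opposite strand by 8825 bases (25.0 CPM in both groups), and it passed in 8 of 19 alternatives. Col15a1 (4.19 and 11.7 CPM, 3.68 to 4.69) overlapped between the groups and was called without control replicate 1 (-1.51, adjusted p = 0.0234) and with no filter on low counts. Col7a1, which forms the anchoring fibrils of skin, was at 57.6 and 49.4 CPM in control and 35.9 to 37.4 CPM in Dkk1_KO and did not pass the test (adjusted p = 0.396).

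Of these 22 calls in Dkk1_KO, 10 held under all 19 alternatives: Col2a1, Col3a1, Col5a3, Col4a2, Col6a5, Col9a1, Col14a1, Col22a1, Col8a2 and Col26a1. The direction of all 22 was the same under each alternative. Col4a5, Col5a1, Col9a2, Col9a3, Col11a2, Col20a1 and Col24a1 lost their calls on leaving out some 1 library. Col1a2, Col4a1, Col5a2, Col13a1 and Col23a1 lost theirs only with Dkk1_KO averaged to 1 library, with limma or with coding transcripts. For Col2a1 the adjusted p ranged from 1.44e-35 to 0.0057 over them, and for Col3a1 from 6.3e-19 to 0.0177.

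**Figure D4:**
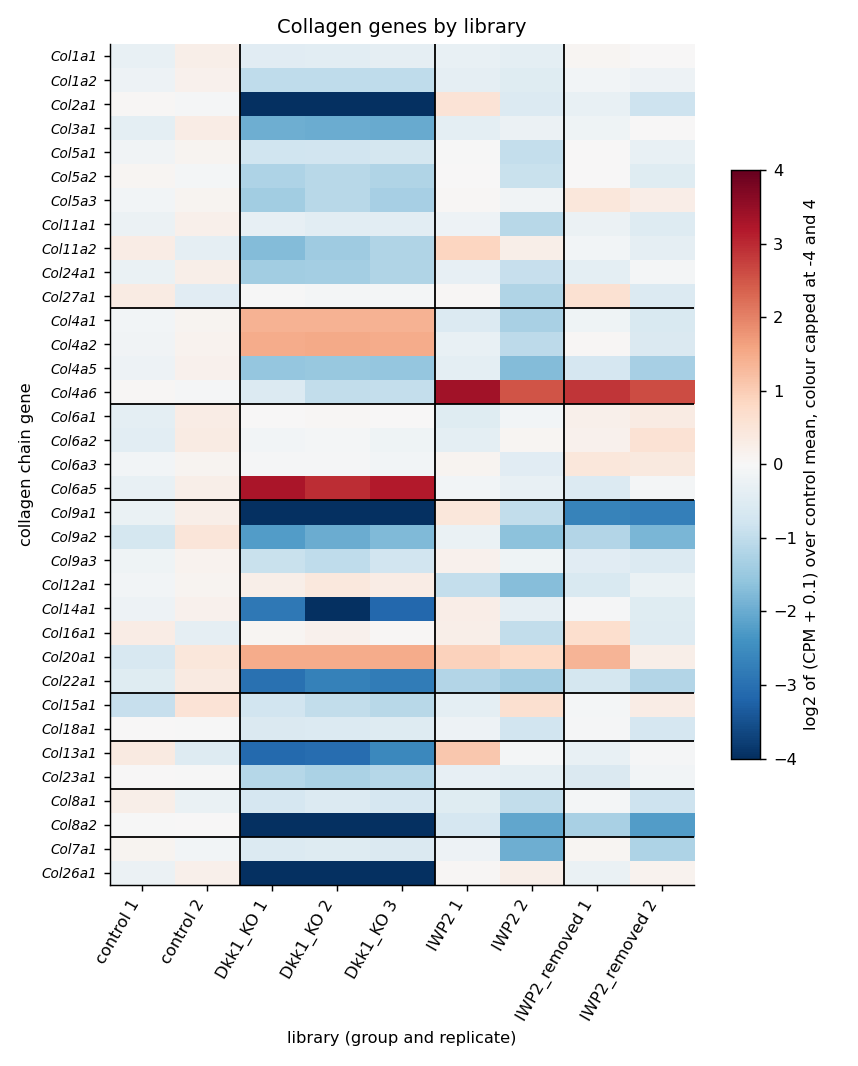
Colours give the log2 of CPM + 0.1 over the control mean for the 35 named collagen genes (rows, in class order, lines between classes) in the 9 libraries (columns, lines between groups), with the scale capped at -4 and 4. The 3 Dkk1_KO columns are nearly alike, and Col4a6 stands out in the IWP2 and IWP2_removed columns. Of the 42 tested genes 34 are lower in IWP2 replicate 2 than in replicate 1 (81.0%, beside 50.8% of all genes).

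Genes that act on collagen chains were read from lists chosen by function. Of 22 genes for modifying and secreting chains, 3 were called higher and 8 lower in Dkk1_KO (13.6% and 36.4%, beside 21.3% and 23.0% of all genes tested). Fkbp10, a chaperone for type I chains, was at 141 ± 4.71 CPM in control (SD, n = 2) and 63.8 ± 2.18 in Dkk1_KO (SD, n = 3). Creb3l1, a transcription factor for secretory genes of collagen-making cells, was at 26.4 ± 4.44 and 9.86 ± 0.838 CPM. Of the glycosyltransferases that add sugars to collagen lysines, Colgalt1 rose from 141 ± 8.57 to 216 ± 4.33 CPM and Colgalt2 fell from 2.47 ± 0.725 to 0.123 ± 0.0908 CPM.

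Of 13 genes for processing and cross-linking 2 were called higher and 5 lower (15.4% and 38.5%, beside the same shares of all genes). The cross-linking enzymes moved in both directions. Lox was at 205 ± 2.18 CPM in control and 144 ± 6.73 in Dkk1_KO, Loxl1 at 63.7 ± 13.9 and 34.9 ± 2.28, and Loxl2 at 237 ± 55.9 and 87.1 ± 4.65, all called lower. Loxl4 was at 5.43 ± 1.52 and 29.4 ± 1.92 CPM and called higher. Of 11 genes for degradation and uptake 1 was higher and 4 lower (9.09% and 36.4%). That 1 was Mmp9, a gelatinase that cleaves type IV collagen, with 13.4 ± 4.61 CPM in control against 311 ± 8.61 CPM in Dkk1_KO (log2 fold change 4.55 ± 0.25, adjusted p = 5.44e-06). Mmp2, the other gelatinase, fell from 214 ± 9.69 to 81.0 ± 3.09 CPM, Mmp14 from 246 ± 56.0 to 84.9 ± 1.36 CPM and the collagen uptake receptor Mrc2 from 141 ± 14.9 to 60.5 ± 2.35 CPM. Of 10 tested collagen receptors none was called higher and 3 lower (beside 21.3% and 23.0% of all genes), namely Ddr1 (159 ± 16.7 to 115 ± 2.10 CPM), Ddr2 (75.8 ± 7.77 to 32.2 ± 1.02 CPM) and Lair1 (3.99 ± 2.04 to 0.581 ± 0.168 CPM).

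In IWP2 against control, Col4a6 rose and Col12a1 fell, and no other collagen gene was called. These 2 of 42 genes were 4.76%, beside 2.19% of all genes tested, with 1 higher call (beside 1.27%) and 1 lower call (beside 0.917%). The median log2 fold change was -0.35 over the collagen genes and 0.01 over all genes tested. Col4a6 was at 1.96 and 1.80 CPM in control and 20.3 and 11.3 CPM in IWP2, from 22 and 29 reads and from 365 and 195 reads. Both IWP2 libraries were far above control, with a log2 fold change estimated at 3.07 ± 0.35 (SE, adjusted p = 0.00615), or 8.39-fold. In IWP2_removed it was at 14.2 and 11.9 CPM, with a log2 fold change estimated at 2.79 ± 0.35 against control (SE, adjusted p = 0.013). It was the only collagen gene called in that comparison, 1 of 42 or 2.38%, beside 1.25% of all genes tested in either direction and 0.669% in the higher direction. These 2 comparisons share the control libraries. Both calls of Col4a6 rest on the spread pooled over all 9 libraries: without Dkk1_KO the adjusted p were 0.0779 and 0.154, with log2 fold changes of 3.06 and 2.79. Col4a6 was called in 14 of 20 alternatives for IWP2 (range of adjusted p 2.29e-10 to 0.15) and in 9 of 20 for IWP2_removed (3.3e-08 to 0.16). Without control replicate 2 neither call held, and that of IWP2_removed also did not without control replicate 1, Dkk1_KO replicates 2 or 3, or either of its own libraries.

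The Col4a6 reads of the IWP2 and IWP2_removed libraries lay in its coding transcript. Transcripts not annotated as coding held 25.2% to 39.0% of its reads in control (7 and 9 reads), 52.0% to 67.4% in Dkk1_KO (7 to 9 reads) and 2.15% to 5.67% in the other 4 libraries (4 to 20 reads). With protein-coding transcripts only, the log2 fold changes were 3.58 (adjusted p = 0.0108) and 3.29 (adjusted p = 0.0245). By that count Col4a6 was also called lower in Dkk1_KO (log2 fold change -1.54, adjusted p = 0.0204), where the sum over all transcripts gave -0.86 (adjusted p = 0.0735), a value that was called without either IWP2 library.

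Col4a5, whose gene starts 1308 bases from that of Col4a6 in the opposite direction, did not move with it. Col4a5 was at 62.0 and 24.5 CPM in IWP2 and 51.3 and 32.5 CPM in IWP2_removed, all below the 70.5 and 92.1 CPM of control, and passed neither test (log2 fold changes -0.91 and -0.96, adjusted p = 0.289 and 0.369). The ratio of Col4a5 to Col4a6, in CPM per kb, was 36.6 and 51.9 in control, 22.3 to 31.7 in Dkk1_KO, 3.11 and 2.20 in IWP2, and 3.69 and 2.79 in IWP2_removed. The 4 libraries of the IWP2 and IWP2_removed groups thus lay below all 5 others.

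Col12a1 was at 84.5 and 50.5 CPM in IWP2, below the 152 and 177 CPM of control, with a log2 fold change estimated at -1.29 ± 0.24 (SE, adjusted p = 0.034). This call was lost in 14 of 20 alternatives, among them the 6 libraries without Dkk1_KO (adjusted p = 0.202), each control or Dkk1_KO library left out and IWP2_removed replicate 1 left out (range over its alternatives 2.29e-06 to 0.326). In IWP2_removed it was at 107 and 136 CPM and did not pass the test against control (-0.44, adjusted p = 0.543). Lox and Plod2, which cross-link and hydroxylate collagen lysines, were called lower in IWP2 (109 ± 2.25 against 205 ± 2.18 CPM, and 101 ± 6.27 against 179 ± 14.6 CPM). No other gene of the 4 lists on collagen handling was called in IWP2. These calls were 7.69% of the cross-linking list and 4.55% of the modification list, beside 0.917% of all genes tested called lower. In IWP2_removed against control Itga1, a collagen-binding integrin chain, was called lower (5.11 ± 0.736 against 15.3 ± 5.30 CPM, adjusted p = 0.0486), and no other listed gene was. It was 10.0% of the tested receptors, beside 1.25% of all genes tested in either direction. Lox, Plod2 and Itga1 were not examined under the alternatives, so how stable their calls are is not known.

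The fibrillar genes were not called in IWP2 or in IWP2_removed. Col3a1 was at 534 and 585 CPM in IWP2 and 622 and 710.2 CPM in IWP2_removed, both overlapping the 527 and 862 CPM of control. Col1a2 was at 845 and 765 CPM in IWP2, below both control libraries without passing the test (adjusted p = 0.234), and 992 and 923 CPM in IWP2_removed. Col2a1 was at 286 and 134 CPM in IWP2 and 157 and 109 CPM in IWP2_removed. Summed fibrillar CPM were 78.9% of control in IWP2 and 93.5% in IWP2_removed (72.8% and 87.8% in summed TPM), and overlapped control in both groups. Type IV sums were 459 and 260.1 CPM in IWP2 and 548 and 381 CPM in IWP2_removed, or 60.5% and 78.1% of control (50.8% and 70.2% in summed TPM). Col4a1, at 216 and 129 CPM in IWP2, lay below both control libraries and did not pass the test (-0.86 ± 0.25, adjusted p = 0.122), though it did by DESeq2 (adjusted p = 0.0263).

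Several genes of low or middle level had wide differences without a call. Col22a1 was at 16.6 and 14.4 CPM in IWP2 and 22.8 and 16.6 CPM in IWP2_removed, all below the 26.5 and 48.2 CPM of control (adjusted p = 0.0657 and 0.216), and was called in IWP2 without control replicate 1 (adjusted p = 0.0424). Col8a2 was at 45.4 and 16.8 CPM in IWP2 and 29.0 and 15.2 CPM in IWP2_removed, below 71.7 and 72.2 CPM in control (adjusted p = 0.213 and 0.136). Col9a1 was at 7.17 and 2.55 CPM in IWP2 and 0.726 and 0.691 CPM in IWP2_removed (adjusted p = 0.958 and 0.102 against control). In IWP2_removed both Col8a2 and Col9a1 were called without either IWP2 library.

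In IWP2_removed against IWP2, none of the 42 collagen genes was called by edgeR, beside 0.0608% of all genes tested. At an unadjusted p below 0.05 there were 6 of 42, of which 4 were higher and 2 lower. Beside them stood 1754 of all 18096 genes tested, 738 higher and 1016 lower. DESeq2 called 1 collagen gene, lower, and its share over all genes is not given. Col12a1 (log2 fold change 0.85, adjusted p = 0.244) and Col6a3 (0.57, adjusted p = 0.317) lay higher in both IWP2_removed libraries than in either IWP2 library, and Col9a1 lower (-2.77, adjusted p = 0.188). Further collagen genes also did not overlap, among them Col1a1, Col1a2 and Col3a1 (higher) and Col9a3 (lower). The share over all genes is not given, so this does not mark these genes out. Col12a1 and Col6a3 were called without IWP2 replicate 1, and Col9a1 and Col2a1 without IWP2 replicate 2. Col4a6 overlapped between these groups (-0.28 ± 0.31, adjusted p = 0.921).

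**Figure D5:**
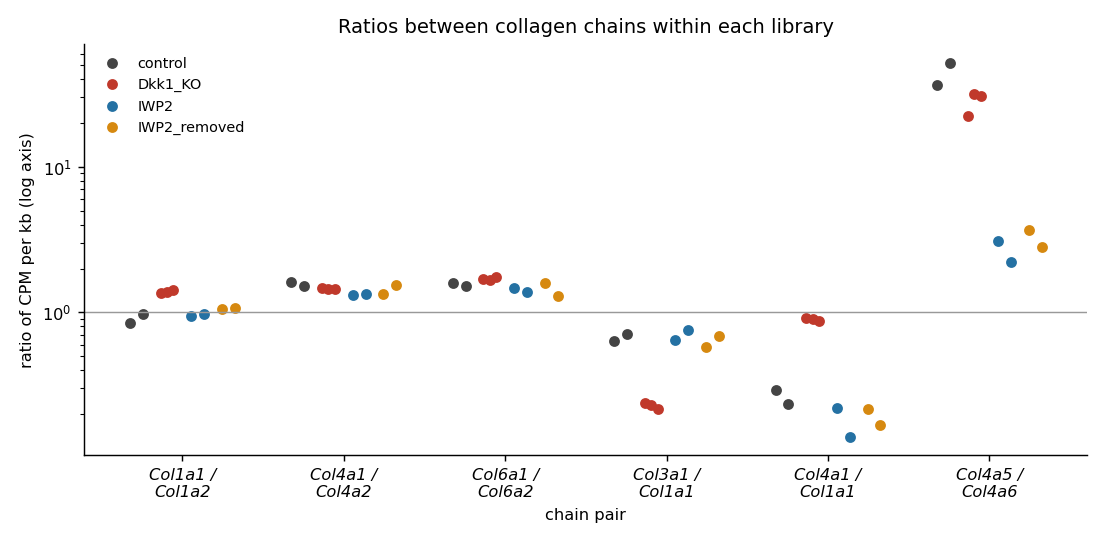
Points are within-library ratios of CPM per kb between pairs of chains (vertical axis, log scale), coloured by group. Col4a1 to Col4a2 and Col6a1 to Col6a2 stay within 1.32 to 1.61 and 1.30 to 1.76 in all libraries, Col3a1 to Col1a1 is lower in Dkk1_KO (0.217 to 0.237) and Col4a5 to Col4a6 is lower in IWP2 and IWP2_removed (2.20 to 3.69).

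Replicates of the smaller groups differed widely in collagen level. Over all genes tested, same-numbered libraries of control, IWP2 and IWP2_removed deviated together from their group means (correlations 0.33 to 0.50). The replicate number is not in the main model, so these differences may not be separate for each group. In IWP2, 34 of 42 tested genes were lower in replicate 2 than in replicate 1 (81.0%, beside 50.8% of all genes). The median log2 ratio was -0.57, against -0.02 over all genes. In IWP2_removed 29 of 42 were lower (69.0%, beside 48.0% of all genes), with medians of -0.22 and 0.01. In control 15 of 42 were lower (35.7%, beside 49.2%), with medians of 0.27 and 0.0. The summed fibroblast markers were at 1033 and 510.5 CPM in IWP2, 1323 and 741 CPM in IWP2_removed, and 1146 and 783 CPM in control, so in control they were lower in the library where most collagen genes were higher. Fbln2 carried most of these differences, at 563 and 136 CPM in IWP2, 729 and 219.8 CPM in IWP2_removed, and 617 and 247 CPM in control. Of the 12 markers 8 were lower in replicate 2 in IWP2, 8 in IWP2_removed and 6 in control. Without Fbln2 the sums were 470.5 and 375, 595 and 521, and 529.7 and 536 CPM. With replicate 2 as the only IWP2 library, log2 fold changes against control were -1.29 for Col4a1, -1.07 for Col4a2 and -1.72 for Col12a1. That of Col4a6 was 2.58, and the median of all genes was -0.0291. These values describe the IWP2 library in which most collagen genes were lower, and not the IWP2 group. The ratio of fibrillar CPM to fibroblast marker CPM ran from 2.84 to 5.48 in control, 3.15 to 5.29 in IWP2 and 2.76 to 4.58 in IWP2_removed, against 2.75 to 2.86 in Dkk1_KO. Without Fbln2, a choice made after the values were seen, it was 6.15 and 8.01 in control, 6.93 and 7.20 in IWP2, 6.15 and 6.52 in IWP2_removed, and 7.24 to 7.74 in Dkk1_KO, within the range of control. The ratio thus depends on the markers summed. In Dkk1_KO Fbln2 was at 98.4%, Prrx1 at 90%, Postn at 22.5% and Dcn at 6.76% of control. The part of feeder cells in these differences was not tested.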

How the data were processed

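The 9 mRNA libraries were made with a stranded TruSeq kit, per the labels' protocols. The authors' deposited tables give, per the file headers, an estimated count and a TPM per transcript. Salmon, DESeq2 and edgeR are named without versions in the submitters' processing notes, and the transcriptome build and strand setting are not given in the sources used here. Transcripts were joined to GENCODE vM21 genes (GRCm38) by stable identifier, and 133399 of 133618 matched. The others held 0.1174% to 0.1607% of reads. Estimated counts were summed per gene and rounded. TPM were summed as deposited.

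The main test was the quasi-likelihood test of edgeR 4.0.16 (R 4.3.3). All 9 libraries entered 1 model with a mean per group, after TMM scaling and filterByExpr, which left 18096 genes. Adjusted p (Benjamini-Hochberg) cover all genes tested, and a call is a value below 0.05. Levels are CPM on the TMM scale. Groups are said not to overlap where all libraries of a group lay above all of the other. The share of all genes that did so is not given. Where a group held no read of a gene, its fold is a bound from 3 counts over the group. This bound covers counting error only. The SE come from the fit of the main test, and the SD are between libraries. The pipeline was tested on simulated data. Members, classes, gene and marker lists were chosen with earlier results of these data known. Named genes had a mean of at least 1 TPM in a group or a call, and from other lists up to 4 called genes per comparison with the smallest adjusted p.

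Alternatives were DESeq2 1.42.0 size factors or Wald test, no filter, limma 3.58.1 on log2(TPM + 1) or log2(TPM + 0.1), only the 2 groups compared, a replicate block, Dkk1_KO averaged to 1 library, the 6 libraries without Dkk1_KO, each library left out in turn, and glmTreat with a minimum fold of 1.5. Protein-coding transcripts only was added after the data were seen. Calls under the alternatives were read for the collagen genes only, and not for marker or other listed genes.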

Additional observations from a re-analysis of the deposited data

How the results depend on the processing

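The number of collagen genes called was 22 in Dkk1_KO against control, 2 in IWP2 against control, 1 in IWP2_removed against control and 0 in IWP2_removed against IWP2. Leaving out each library in turn gave 17 to 25, 0 to 11, 0 to 3 and 0 to 2. Averaging Dkk1_KO to 1 library gave 11, 0, 0 and 0. Without Dkk1_KO the last 3 counts were 0, and so they were in limma on either TPM scale (with 17 in Dkk1_KO) and with only the 2 groups compared. The DESeq2 Wald test gave 4, 3 and 1 for these 3 comparisons, and no filter gave 7, 5 and 2. IWP2 against control gave 1 with glmTreat, 1 with protein-coding transcripts only and 1 with the replicate block. The replicate block gave 21, 1, 1 and 0 calls in all. The labels state no pairing, and same-numbered control, IWP2 and IWP2_removed libraries deviated together (correlations 0.33 to 0.50) while those of Dkk1_KO did not. On the TPM scales the median of all genes in Dkk1_KO moved to -0.135 and -0.213. No called fold change reversed. Calls in the groups of 2 thus rest on the spread shared with Dkk1_KO, whose 3 libraries were nearly alike. A group left with 1 library was assumed to vary like the other groups, and its counts describe that library. No alternative varied the depth. The share of all genes called is given for the main model only, so counts under the alternatives, here and above, have no such share beside them.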
